A study of Mus musculus with 6 samples.

Results

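The genes described here encode the NF-kB transcription factors and ankyrin-repeat proteins of the IkB family that bind them. They were measured in bulk RNA of mouse liver with and without tamoxifen-induced deletion of the kinase TAK1 in endothelium. The 10 genes were taken by name from a table of 24318 gene rows and comprise 5 subunits (Nfkb1, Nfkb2, Rel, Rela and Relb) and 5 inhibitors (Nfkbia, Nfkbib, Nfkbie, Nfkbiz and Bcl3). Nfkbiz and Bcl3 encode nuclear proteins of the IkB family and are counted as inhibitors by family only. All 10 were present in the table and all 10 passed the filter on low values, among 11842 rows that did. All mice had a C57BL/6 background and the genotype VEcadCreERT2/TAK1flox/flox, in which a tamoxifen-activated Cre recombinase is driven by the promoter of the endothelial gene Cdh5 and the gene of TAK1, Map3k7, carries loxP sites. Control livers came from such mice without treatment (3 libraries) and knockout livers from such mice given tamoxifen (3 libraries). Deletion and tamoxifen therefore cannot be told apart in any value below. The time after tamoxifen, the age and the sex of the animals are not given in the sources used here. Nothing in the labels says that a group's libraries came from separate animals, and p-values then describe only how far these libraries spread, which may be technical.

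NF-kB factors are dimers of Rel-homology proteins. In resting cells most dimers are held in the cytoplasm by IkB proteins. TAK1 activates the IkB kinase complex, which marks IkB proteins for destruction and frees dimers such as that of RelA with p50 to enter the nucleus. Among the genes these dimers then switch on are several of their own subunits and inhibitors, which forms a feedback loop. A slower, alternative route processes the product of Nfkb2 and works through RelB. In liver, this pathway is known for guarding cells against death from tumour necrosis factor and for driving inflammatory and acute phase genes in hepatocytes, macrophages and endothelium.

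Levels are in FPKM, which divides the fragments of a gene by its transcript length and the size of the library, so levels can be compared between genes. Means are given ± SD over the 3 libraries of a group (n = 3). Log2 fold changes (knockout minus control) were taken of log2(FPKM + 0.5), come with their standard error, and understate the change of genes near 1 FPKM. A gene was called, and is said to have risen or fallen, at a Benjamini-Hochberg adjusted p under 0.05 in limma's moderated test over all 11842 rows. Read totals are unknown. Steps between low values put the libraries at 0.921 to 1.085 times the depth of control 1 (33.3% to 37.7% of 501 to 650 low genes shared the commonest step). These are depths only if values were scaled by library totals, and the labels do not state the scaling. Of the targeted gene Map3k7, the control libraries held 8.498, 9.02 and 9.14 FPKM and the knockout libraries 9.28, 9.31 and 7.35 FPKM (a change of -0.045 ± 0.16 in log2 units with an adjusted p of 0.868, turning to 0.062 if knockout 3 is left out). A gene-level value in bulk liver RNA neither separates endothelium from other cells nor shows a loss of single exons, so the deletion was not checked by it. Cdh5, whose promoter drives the Cre, was present in all libraries (10.3 to 23.1 FPKM in control, 16.3 to 18.8 FPKM in knockout, adjusted p = 0.469, but 0.0352 without control 3, with a log2 fold change of 0.61). Hepatocyte markers, which check the label liver, summed to at least 12270 FPKM in each library.

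Several of these genes are known targets of the factors they encode, and the letters of the binding site were therefore looked for in their promoters. RefSeq promoter windows on GRCm38.p6, from 250 bases before to 50 after a transcript start, were available for 7 of the 10 genes, all but Nfkb1, Relb and Nfkbiz. Windows were searched on both strands for the 10-base kappaB consensus, and overlapping matches were merged. At least 1 match lay in the windows of 5 of these 7 genes (Nfkb2, Rel, Nfkbia, Nfkbie and Bcl3) and none in those of Rela and Nfkbib. A match is a string of letters and does not show binding. The stretches below show where the matches lie, in capitals, with all other bases in lower case, each 5′ to 3′ on the gene's strand. Stretches inside annotated exons are limited to 30 bases around the match.
Nfkbia, chr12:55492648-55492767, minus strand: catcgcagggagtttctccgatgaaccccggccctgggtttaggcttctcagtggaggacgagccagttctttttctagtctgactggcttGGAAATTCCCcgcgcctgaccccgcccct
Nfkbie, chr17:45555580-45555699, plus strand: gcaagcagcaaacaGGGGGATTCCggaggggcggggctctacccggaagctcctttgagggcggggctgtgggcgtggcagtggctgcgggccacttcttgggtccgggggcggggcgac
Rel, chr11:23770971-23771089, minus strand: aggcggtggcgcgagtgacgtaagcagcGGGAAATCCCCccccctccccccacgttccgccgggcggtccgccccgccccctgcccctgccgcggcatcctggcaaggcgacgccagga
Nfkb2, chr19:46304688-46304717, plus strand: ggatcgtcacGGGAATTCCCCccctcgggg
Nfkb2, chr19:46304716-46304745, plus strand: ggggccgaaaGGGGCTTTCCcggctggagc
Nfkb2, chr19:46305449-46305478, plus strand: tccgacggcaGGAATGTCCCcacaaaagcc
Nfkb2, chr19:46305695-46305724, plus strand: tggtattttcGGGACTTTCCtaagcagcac
Bcl3, chr7:19822734-19822763, minus strand: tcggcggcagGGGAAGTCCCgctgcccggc
Nfkbib, without a match, chr7:28766645-28766734, minus strand: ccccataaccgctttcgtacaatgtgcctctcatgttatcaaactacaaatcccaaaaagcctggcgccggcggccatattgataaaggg

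Nfkb2 held 4 separate matches around its 3 annotated starts, the most of the 7 genes, and the other matching genes held 1 each. Every other gene had 1 window, so less sequence was searched for it than for Nfkb2. The match of Nfkbia began 29 bases before its start, that of Rel 92 bases before, that of Nfkbie 106 bases before, and that of Bcl3 at base 3 of the transcript. Over all genes, 8.46% of 32851 windows held a match, or 9.55% of 27025 genes in at least 1 window. Among genes with a window, the share with a match was 14% of those called higher in knockout, 11.7% of those called lower and 12.2% of those not called. Of the 5 members with a match, Nfkb2 and Nfkbia were called in the comparison below, and Rel, Nfkbie and Bcl3 were not.

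Of the 10 genes, 5 rose in knockout livers (Nfkbiz, Relb, Nfkb2, Nfkb1 and Nfkbia), none fell, and 5 were not called (Rel, Rela, Nfkbib, Nfkbie and Bcl3). Of all rows tested, 27.0% were called, 14.1% as higher and 13% as lower in knockout. At an unadjusted p under 0.05 in limma, 6 of the 10 were higher, the additional gene being Bcl3, and 0 lower. All knockout libraries lay above all control libraries for 6 of the 10 genes, the 5 called and Bcl3, against 22.4% of all rows (21.1% had all knockouts below all controls, and 43.5% did not overlap in either direction). The median log2 fold change of the 10 genes was 0.57, against -0.0007 over all rows. The genes were chosen with earlier results of these data known, so these counts describe them and do not test them.

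**Figure D1:**
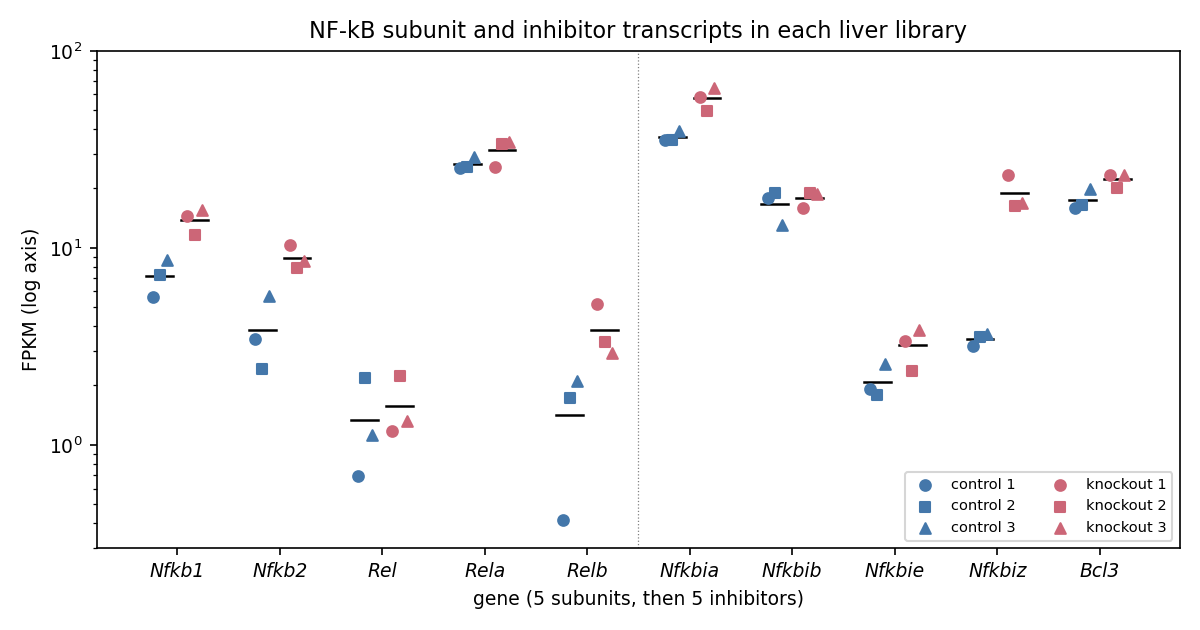
FPKM on a log axis (vertical) for each of the 10 genes (horizontal; 5 subunits left of the dotted line, 5 inhibitors right of it), with 1 symbol per library, control in blue and knockout in red, and a bar at each group's mean. Nfkbiz shows the widest gap between the groups, from at most 3.67 FPKM in control to at least 16.3 FPKM in knockout libraries.

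Rela was the most abundant subunit in both groups and was not called. It encodes p65, the subunit that carries the main activation domain of the canonical dimer. The control libraries held 25.4, 25.8 and 28.7 FPKM of Rela and the knockout libraries 25.6, 33.6 and 34.5 FPKM. Knockouts 2 and 3 lay above all controls, and knockout 1 lay within the control range. The log2 fold change of Rela was 0.22 ± 0.16 (adjusted p = 0.347), with a 95% interval from -0.14 to 0.57, which leaves room for an increase of up to 0.57 on the log2 scale. It was 0.35 without knockout 1, 0.14 without knockout 3 and 0.097 with libraries rescaled to the same total, and was called under none of the 16 alternatives.

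Nfkb1 rose 1.93-fold by its means. It encodes p105, a protein that restrains NF-kB as a precursor and yields p50, the usual partner of RelA, when processed. Nfkb1 was found at 5.65, 7.297 and 8.64 FPKM in the controls, against 14.6, 11.6 and 15.5 FPKM in the knockouts, from 7.195 ± 1.499 to 13.9 ± 2.03 FPKM. The groups did not overlap. The log2 fold change of Nfkb1 was 0.91 ± 0.20 (limma adjusted p = 0.00876), and the call was kept under all 16 alternatives.

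Rel, the gene of c-Rel, a subunit most abundant in lymphocytes, was the least abundant of the 10 genes in knockout livers, and in controls its range overlapped with that of Relb. In control libraries Rel stood at 0.698, 2.17 and 1.13 FPKM, and in knockout libraries at 1.17, 2.24 and 1.32 FPKM. The groups overlapped, and library 2 was the highest in each. For Rel the log2 fold change was 0.23 ± 0.35 (adjusted p = 0.675) with a 95% interval from -0.56 to 1.02, and it was -0.040 without control 1.

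Nfkb2 rose 2.32-fold by its means. It encodes p100, which acts as an inhibitor until it is processed to p52, the partner of RelB in the alternative pathway. The control libraries held 3.44, 2.42 and 5.68 FPKM of Nfkb2 and the knockout libraries 10.3, 7.85 and 8.55 FPKM, and the lowest knockout lay above the highest control. Its log2 fold change was 1.18 ± 0.27 (adjusted p = 0.0118), in a range of 0.92 to 1.46 with each library left out in turn. Control 3 was 2.34 times control 2, the lowest library.

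Relb, the gene of the subunit of the alternative pathway that pairs with p52, was called higher, and this call was the least stable of the 5. Relb was found at 0.415, 1.73 and 2.11 FPKM in the controls, against 5.18, 3.33 and 2.93 FPKM in the knockouts. The groups did not overlap, and control 1 was far below the other controls (5.08 times between the highest and lowest control). The change of Relb on the log2 scale was 1.27 ± 0.40 (adjusted p = 0.0415), and 0.81 without control 1 (adjusted p = 0.0939). The call was lost without any 1 library other than control 3, and under 5 of 10 alternatives that kept all libraries. Relb (chr7:19606217-19629438) and Bcl3 (chr7:19808462-19822770) lie 179 kb apart on the minus strand in GENCODE's annotation of GRCm38, which is not the authors' build, mm9.

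**Figure D2:**
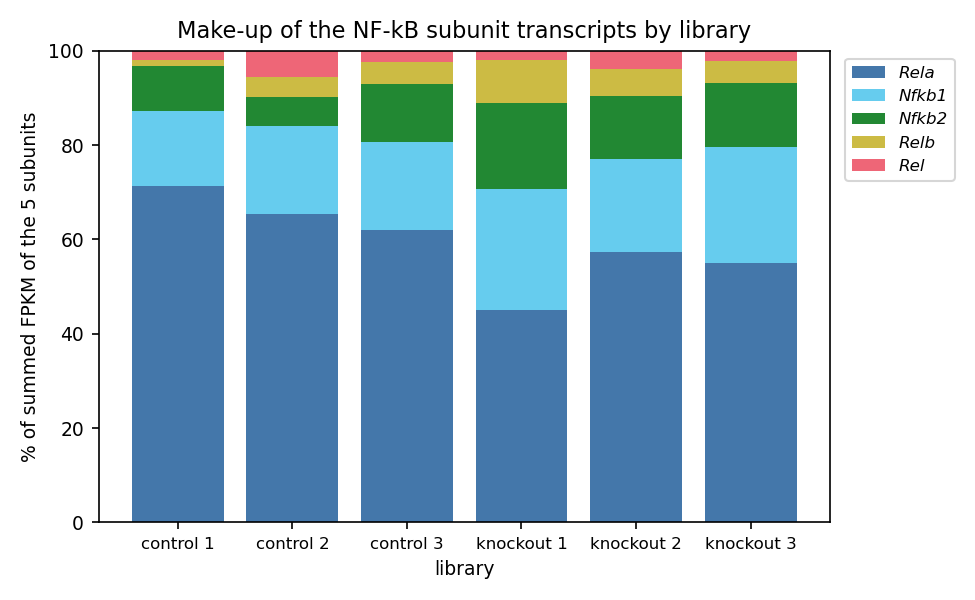
Percent of the summed FPKM of the 5 subunit genes (vertical) taken by each gene in each library (horizontal). Rela took 62.1% to 71.3% in the 3 control libraries and 45.0% to 57.3% in the 3 knockout libraries.

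Rela took a smaller part of the subunit transcripts in every knockout library than in any control. Summed over the 5 subunits, the level was 35.6, 39.4 and 46.3 FPKM in the controls, against 56.8, 58.7 and 62.9 FPKM in the knockouts, with no overlap. Rela made up 66.3% ± 4.67 of that sum in control and 52.4% ± 6.56 in knockout livers. The share of Nfkb1 was 17.7% ± 1.56 and 23.4% ± 3.14, that of Nfkb2 9.36% ± 3.07 and 15.1% ± 2.71, and that of Relb 3.37% ± 1.91 and 6.49% ± 2.33, each with all knockout libraries above all controls. The share of Rel was 3.30% ± 1.93 and 2.66% ± 0.997 and overlapped between groups. The shares sum to a whole, so a larger share of one gene lowers the others, and they are given without a test.

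Nfkbia was the most abundant of the 10 genes in both groups and rose 1.57-fold by its means. It encodes IkB-alpha, the inhibitor that is destroyed first on activation and resynthesized soon after. In control libraries Nfkbia stood at 35.3, 35.4 and 39.3 FPKM, and in knockout libraries at 58.6, 49.2 and 64.6 FPKM. The groups did not overlap, and the controls lay within 1.11 times of each other. Its log2 fold change was 0.63 ± 0.14 (adjusted p = 0.0109), and the call was kept under all 16 alternatives, with a highest adjusted p of 0.0483. The difference of 20.8 FPKM between the group means was the largest of the 10 genes on the linear scale.

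Nfkbib, the gene of IkB-beta, an inhibitor with slower turnover, was not called. The control libraries held 17.97, 19.03 and 13.03 FPKM of Nfkbib and the knockout libraries 15.9, 18.9 and 18.7 FPKM. The groups overlapped, and control 3 was the lowest library of the 6. Its log2 fold change was 0.11 ± 0.18 (adjusted p = 0.686) with a 95% interval from -0.29 to 0.51, and the sign turned without control 3 (-0.052) and with libraries rescaled to the same total (-0.00613).

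Nfkbie, the gene of IkB-epsilon, was low and not called. Nfkbie was found at 1.91, 1.79 and 2.57 FPKM in the controls, against 3.38, 2.38 and 3.83 FPKM in the knockouts. Knockouts 1 and 3 lay above all controls, and knockout 2 lay below control 3. Its log2 fold change was 0.50 ± 0.24 (adjusted p = 0.157), with a 95% interval from -0.045 to 1.05.

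Nfkbiz showed the largest change of the 10 genes, 5.45-fold by its means. It encodes IkB-zeta, a nuclear member of the IkB family that works with p50 at a subset of inflammatory genes, including Lcn2. In control libraries Nfkbiz stood at 3.17, 3.54 and 3.67 FPKM, and in knockout libraries at 23.5, 16.3 and 16.8 FPKM. The knockout libraries lay far above the controls, which were within 1.16 times of each other. The log2 fold change of Nfkbiz was 2.27 ± 0.19 (adjusted p = 9.65e-05), in a range of 2.11 to 2.36 with each library left out in turn. No test compared the changes of different members with each other.

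Bcl3, the gene of a nuclear IkB protein that binds dimers of p50 or p52, was not called although its groups did not overlap. The control libraries held 15.9, 16.5 and 19.9 FPKM of Bcl3 and the knockout libraries 23.5, 20.01 and 23.3 FPKM. The lowest knockout library exceeded the highest control by little (20.01 against 19.9 FPKM). Its log2 fold change was 0.35 ± 0.15 (adjusted p = 0.120), with a 95% interval from 0.006 to 0.69 that is not adjusted for the number of genes.

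**Figure D3:**
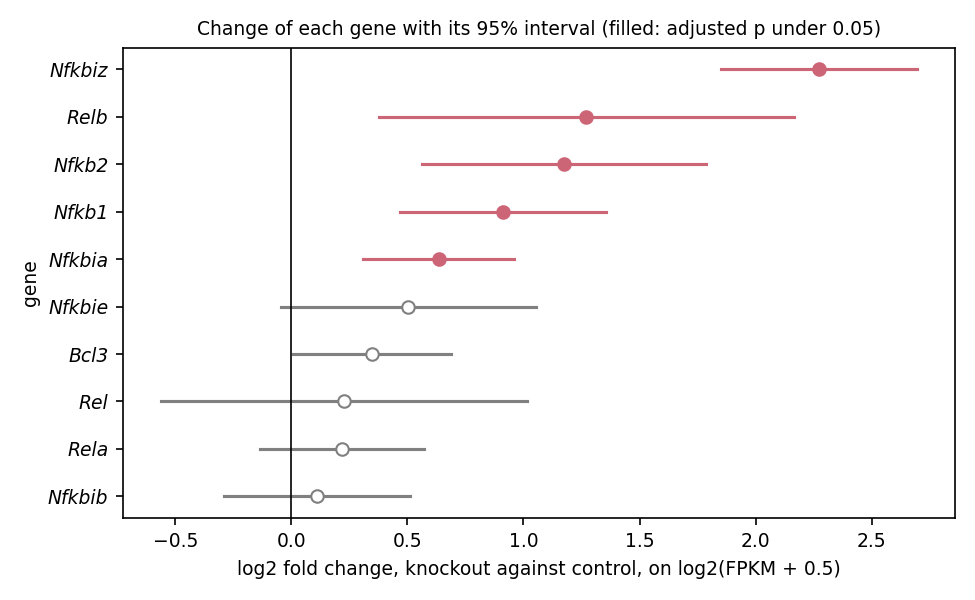
Log2 fold change of knockout against control on the log2(FPKM + 0.5) scale (horizontal) with its 95% interval for each gene (vertical, ordered by size); filled red points passed the adjusted threshold. The 5 called genes range from 0.63 (Nfkbia) to 2.27 (Nfkbiz), and the 5 others from 0.11 (Nfkbib) to 0.50 (Nfkbie).

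The order of levels was similar in both groups at the top and differed in the middle. Nfkbia stood at rank 1, Rela at rank 2 and Bcl3 at rank 3 in controls and in knockouts, and the ranges of these 3 genes did not overlap with each other. In controls the order went on with Nfkbib, Nfkb1, Nfkb2, Nfkbiz, Nfkbie, Relb and Rel. The library ranges overlapped between Bcl3 and Nfkbib, between Nfkb1 and Nfkb2, between Nfkb2 and Nfkbiz, between Nfkbie and Relb and between Relb and Rel, so these neighbours cannot be ordered. In knockouts Nfkbiz stood at rank 4 instead of 7, at 18.9 ± 3.99 FPKM, where it overlapped with Bcl3 above it and Nfkbib below it. Relb overlapped with Nfkbie there, and all other neighbours were apart.

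Of 6 ratios between members, the ranges of 2 did not overlap between the groups. The ratio of Relb to Rela was 0.0164, 0.0669 and 0.0734 in control and 0.203, 0.0991 and 0.085 in knockout libraries. The ratio of Nfkbia to Rela was 1.39, 1.37 and 1.37 in control and 2.29, 1.46 and 1.87 in knockout libraries, so the controls lay close together (1.38 ± 0.0135). Each gave an exact two-sided permutation p of 0.1, the smallest that 3 against 3 libraries allow, and 0.3 after Benjamini-Hochberg adjustment over the 6 ratios. The ratio of Nfkbib to Nfkbia was 0.459 ± 0.111 in control and 0.316 ± 0.0606 in knockout livers (exact p = 0.2), with 1 knockout library within the control range. The ratios of Nfkb2 to Nfkb1 (0.533 ± 0.175 and 0.646 ± 0.083), Rel to Rela (0.0503 ± 0.0299 and 0.0502 ± 0.0146) and Nfkbie to Nfkbia (0.0567 ± 0.00779 and 0.0551 ± 0.00591) overlapped between the groups (exact p = 0.5, 0.9 and 0.9).

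**Figure D4:**
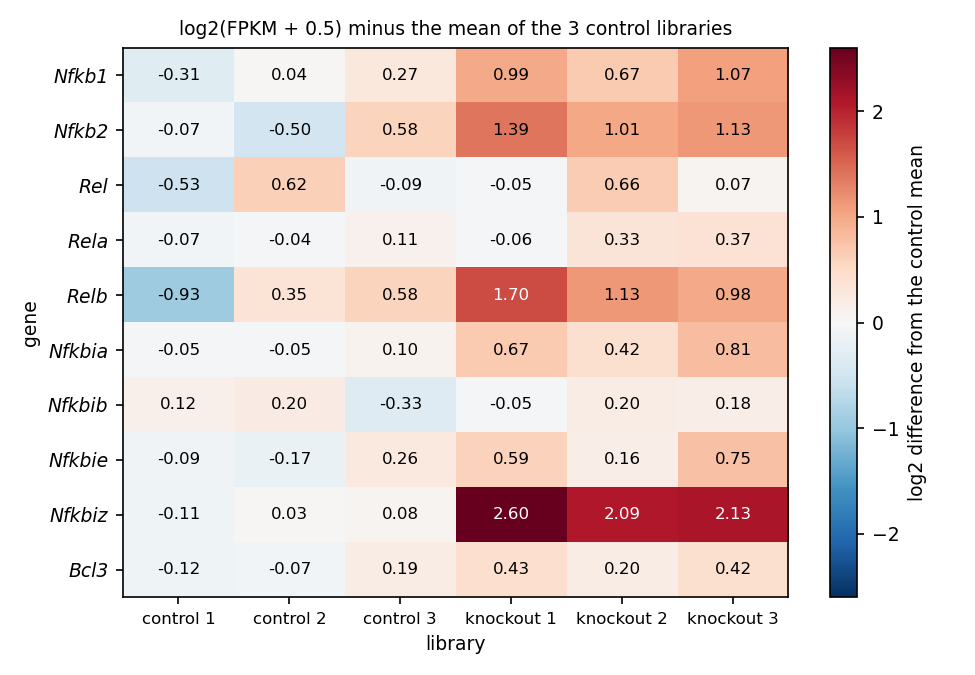
Log2(FPKM + 0.5) of each gene (rows) in each library (columns) minus the mean of the 3 control libraries, with the value printed in each cell. Control 3 is the highest control in 8 of 10 rows, and knockout 2 the lowest knockout in 6 of 10.

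The libraries of a group were not alike across the members. Control 3 was the highest control for 8 of the 10 genes, all but Rel and Nfkbib, and control 1 the lowest for 7. Knockout 2 was the lowest knockout for 6 of the 10 genes, and knockouts 1 and 3 were each the highest for 4. Among controls, control 3 also had the highest summed level of macrophage markers (1633 FPKM against 909 and 931 FPKM in controls 1 and 2) and of neutrophil, monocyte, B cell, endothelial, stellate cell and bile duct markers, and the lowest of hepatocyte markers (19972 FPKM against 26332 and 22010 FPKM). The part of these cell types in the order of the controls was not tested. All 5 calls were kept without control 3.

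Many markers of blood cells rose in knockout livers, and many of endothelium fell. Of neutrophil markers 17 of 17 tested rose, of monocyte markers 12 of 12, of macrophage markers 11 of 14, of T and NK cell markers 5 of 11 and of B cell markers 6 of 9, with none called lower in limma (also none at an unadjusted p under 0.05). Of those that rose, 8 neutrophil, 4 monocyte, 3 T and NK cell and 3 B cell markers had a control mean under 0.5 FPKM and passed the filter only through the knockout libraries. The summed level of neutrophil markers was 220 to 420 FPKM in the controls and 5261 to 6811 FPKM in the knockouts, and that of monocyte markers 303 to 402 and 798 to 831 FPKM. Lcn2, also on the list of NF-kB targets, made up most of the neutrophil sum (180 to 340 and 3478 to 5047 FPKM). Fn1 made up most of the monocyte sum (270 to 365 and 469 to 517 FPKM). Both sums therefore mainly follow these genes and not the other markers. Macrophage markers summed to 909 to 1633 and 2147 to 2472 FPKM, where the Kupffer cell markers Cd5l and Vsig4 rose and Clec4f, Timd4 and Marco were not called. T and NK cell markers summed to 5.89 to 10.1 and 20.9 to 24.1 FPKM, and B cell markers to 3.24 to 8.996 and 20.2 to 35.4 FPKM. The T cell markers Cd8a and Cd8b1 and the B cell markers Cr2, Ebf1 and Pax5 were listed at 0 in all controls. Endothelial markers fell for 13 of 18 (summed 195 to 308 FPKM in the controls and 72.9 to 85.1 FPKM in the knockouts, 0 higher at an unadjusted p under 0.05) and hepatocyte markers for 10 of 15 (19972 to 26332 and 12270 to 13902 FPKM, 0 higher likewise). The largest endothelial falls were those of Clec4g (54.9 ± 9.81 to 0.127 ± 0.22 FPKM) and Dnase1l3 (23.1 ± 6.31 to 0.704 ± 0.115 FPKM). The endothelial markers Cdh5, Pecam1, Eng, Emcn and Stab2 were not called. Of these, Cdh5, Emcn and Stab2 had a higher mean in knockouts, and Pecam1 and Eng a lower mean. Stellate cell markers rose for 8 of 12 (260 to 313 and 441 to 575 FPKM). Of bile duct markers 2 rose and 1 fell of 7 (37.2 to 49.9 and 45.5 to 57.3 FPKM). Of the 2 that rose, Sox9 (0.422 ± 0.128 FPKM in controls) passed the filter only through the knockout libraries. Spp1, not called, made up most of the bile duct sum (24.2 to 38.6 and 37.9 to 47.6 FPKM). In bulk liver RNA, a change in the number of cells of a type and a change in RNA per cell cannot be told apart, and the part of these cell types in the members' values was not tested.

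By root mean square distance between log2(FPKM + 0.5) profiles over the 6 libraries, each centred on its control mean, the tested gene nearest to each called member was Fpr1, a formyl peptide receptor of phagocytes, for Nfkb1 (distance 0.0649 on the log2 scale), Il16 for Nfkb2 (0.0989), Ampd3, not itself called, for Relb (0.0526), Notch2 for Nfkbia (0.0630) and the proteoglycan gene Vcan for Nfkbiz (0.0990). Vcan is also on the list of monocyte markers. It went from a mean of 0.104 FPKM in control to 2.52 FPKM in knockout libraries. It passed the filter on low values only through the knockout libraries, and the added 0.5 shrinks its change more than that of Nfkbiz. The nearest genes are descriptions over 6 libraries, with no test.

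Genes of the machinery that activates NF-kB were called higher at close to the share of all rows. Of 31 genes of the canonical route from receptor to IkB kinase and ubiquitin ligase, all tested, 4 rose (12.9%, against 14.1% of all rows). Falls numbered 2 (6.45%, below the share of all rows called lower), and 25 genes were not called. The median log2 fold change was 0.11 against -0.0007 over all rows. At an unadjusted p under 0.05 in limma, 7 of the 31 were higher and 5 lower, so not called does not mean unchanged. All knockout libraries lay above all controls for 8 genes and below them for 5, against 22.4% and 21.1% of all rows. The rises were those of the bacterial sensors Tlr2 (2.28 ± 1.04 to 7.16 ± 2.59 FPKM, adjusted p = 0.0106) and Tlr4, of the adaptor Myd88 and of the kinase gene Irak4 (3.68 ± 0.621 to 6.91 ± 0.59 FPKM, adjusted p = 0.0113). The falls were those of the ubiquitin ligase subunit Skp1a (131 ± 5.82 to 72.2 ± 6.597 FPKM, adjusted p = 0.0016) and the interleukin-1 co-receptor Il1rap. The calls of Tlr4, Myd88 and Il1rap were lost under 5, 7 and 4 of the 16 alternatives, Tlr4 without control 1, control 2, knockout 1 or knockout 3, Myd88 without any 1 library other than knockout 2, and Il1rap without control 1, control 3 or knockout 3. The list's rises numbered 2 without control 1, control 2, knockout 1 or knockout 3, and its falls 1 without control 1 or knockout 3.

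Genes of the alternative pathway rose in part. Of 16 genes 13 were tested, 5 rose, none fell (0 at an unadjusted p under 0.05) and 8 were not called, with a median of 0.82. Of the tested genes 38.5% rose, against 14.1% of all rows, whose median was -0.0007. The list was chosen with earlier results of these data known, so the share is a description. Of the 5 that rose, Tnfrsf13c and Cd40 passed the filter on low values only through the knockout libraries, and 3 were called at a mean of at least 1 FPKM. The receptor Tnfrsf12a, which binds the cytokine TWEAK, rose from 5.32 ± 2.605 to 37.9 ± 16.8 FPKM (log2 fold change 2.73 ± 0.35, adjusted p = 7.61e-04). Ltb, the gene of lymphotoxin-beta, rose from 1.53 ± 0.775 to 6.40 ± 1.48 FPKM (adjusted p = 0.0026). The receptor gene Cd40 rose from 0, 0 and 0.258 FPKM in the controls to 1.61, 0.632 and 1.51 FPKM in the knockouts, and the BAFF receptor gene Tnfrsf13c was listed at 0 in all controls and at 0.698, 1.296 and 1.58 FPKM in knockout libraries. Birc3, an inhibitor of apoptosis and ubiquitin ligase, rose from 3.99 ± 0.785 to 7.48 ± 0.973 FPKM (adjusted p = 0.0136), a call lost without control 2 or knockout 1. Map3k14, the gene of the kinase that starts this route, was not called, at 1.26, 1.64 and 1.16 FPKM in the controls and 1.41, 1.91 and 1.597 FPKM in the knockouts. It was chosen after its values were seen.

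**Figure D5:**
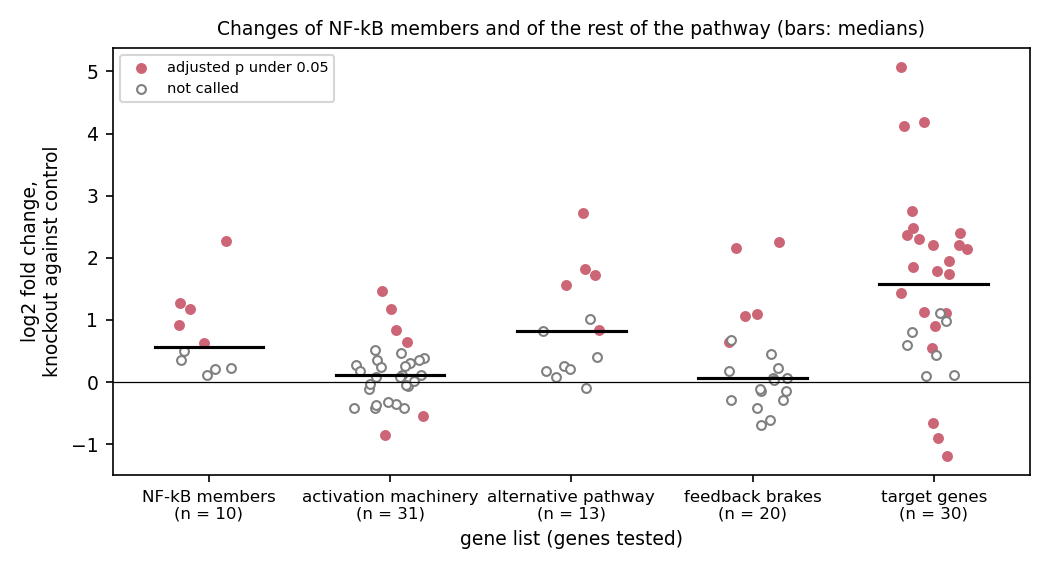
Log2 fold change of knockout against control (vertical) for each tested gene of the NF-kB members and of 4 pathway lists (horizontal, with the number of genes tested), filled red where the adjusted p was under 0.05, with a bar at each median. The medians are 0.57 for the members, 0.11 for the activation machinery, 0.82 for the alternative pathway, 0.07 for the feedback brakes and 1.58 for the target genes.

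Other brakes on NF-kB were mixed. Of 22 genes 20 were tested, 5 rose, none fell (3 lower at an unadjusted p under 0.05) and 15 were not called, with a median of 0.07. Tnfaip3, which encodes the ubiquitin-editing enzyme A20, rose from 2.17 ± 1.28 to 11.4 ± 1.54 FPKM (log2 fold change 2.25 ± 0.31, adjusted p = 0.00103). Irak3, a brake on Toll-like receptor signals, rose from 0.979 ± 0.251 to 6.03 ± 0.579 FPKM (adjusted p = 2.63e-04), and the ribonuclease gene Zc3h12a from 1.998 ± 0.234 to 4.77 ± 0.984 FPKM (adjusted p = 0.00748). Pdlim2 and the A20 partner Tnip1 were called too, but not without control 1, control 2, knockout 1, knockout 2 or knockout 3. When each library was scaled to an equal sum, the median over all rows shifted to -0.10, and 3 brakes were called higher and 3 lower. The brakes called higher numbered 3 without control 1, control 2, knockout 1 or knockout 2.

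Many genes known as NF-kB targets rose. Of 40 genes 30 were tested, of which 20 rose (14 without control 1 or without knockout 1, and 14 to 18 with each library left out in turn), 3 fell (the clotting initiator F3, the death receptor brake Cflar and the proteasome subunit Psmb9, the only ones called lower, named after their values were seen) and 7 were not called, with a median of 1.58. This list shares Mmp9 and Lcn2 with the neutrophil markers, and genes such as Il1b are also leukocyte products. The largest rises were those of the acute phase gene Saa3 (102 ± 68.5 to 3147 ± 1122 FPKM), the gelatinase gene Mmp9 (0.329 ± 0.173 to 14.6 ± 2.92 FPKM), the lipocalin gene Lcn2 (240.0 ± 87.0 to 4074 ± 849.5 FPKM) and the early response gene Ier3 (1.63 ± 1.004 to 12.6 ± 1.73 FPKM). They went on with Bcl2a1b (adjusted p = 6.96e-04), whose near-identical paralogs can share its reads, the chemokine Ccl5 (adjusted p = 5.79e-04), the cytokine Il1b (adjusted p = 0.00333) and the sterol hydroxylase Ch25h (adjusted p = 0.00218), which was listed at 0 in 2 of 3 controls. Of the 20 targets called higher, 4 (Mmp9, Ch25h, Bcl2a1d and Cd83) had a control mean under 0.5 FPKM and passed the filter on low values only through the knockout libraries. Targets called lower numbered 1 without control 1, control 2 or knockout 3. The targets Ccl20, Csf2 and Ptgs2 were listed at 0 in all 6 libraries, and Il6, Csf3 and Ccl4 in all controls. These 6 were named after their values were seen.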

How the data were processed

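Liver RNA was made into 6 TruSeq libraries (Sample Prep v2) and read from both ends on a HiSeq instrument, per the labels' protocols. The submitters' processing notes name build mm9 and, with no order, Cuffnorm 2.2.1, Cuffdiff 2.2.1, TopHat2 2.1.0 and Trimmomatic 0.33. They name no gene annotation. The authors deposited 1 table of FPKM values per gene, used as it stands. A row at 0 in all of one group and above 1000 FPKM on average in the other (1 row, Alb) was left out as a failed estimate. Rows with a mean of at least 0.5 FPKM were fitted with limma 3.58.1 in R 4.3.3 (two-sided moderated test, with the variance trended on the mean level). The test was also run on simulated normal values with the fitted variances. Such values meet the model's assumptions, so this run does not show how well the model suits these data. The table holds no counts, so read depth is unknown and counting error has no interval. Gene lists were the 4 pathway lists and 9 marker lists described in the report. The members and lists were chosen with earlier results of these data known. Named genes are all members, Map3k7, Cdh5, per pathway list up to 8 called genes of largest change, per marker list up to 2, and the gene nearest in profile to each called member. Beyond these, marker and target genes listed at 0, macrophage markers of Kupffer cells, endothelial markers not called and targets called lower were named after their values were seen. So were Fn1, Spp1, Bcl2a1d, Cd83 and Map3k14. Alternatives were 10 with all libraries and 6 with 1 library left out. Promoters are RefSeq's on GRCm38.p6, and exons GENCODE's on GRCm38. Figures were drawn with matplotlib 3.10.9.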

Additional observations from a re-analysis of the deposited data

How the results depend on the processing

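Among the 10 members, Nfkb1, Nfkb2, Nfkbia and Nfkbiz kept their calls and Rela, Nfkbie and Bcl3 stayed not called, all in the same direction, under all 16 alternatives; members called higher numbered 4 or 5 and called lower 0. Relb did not pass with a pseudocount of 0.1 (log2 fold change 1.57, adjusted p = 0.0574), without a filter on low values (1.27, adjusted p = 0.0761), with libraries rescaled to the same total (1.18, adjusted p = 0.0579), without the mean-variance trend (1.27, adjusted p = 0.0574) or with the replicate block (1.27, adjusted p = 0.0589), and ranged from 0.81 to 1.56 with 1 library left out. The block changed no other member's call. Libraries with the same number hardly deviated together (correlations of deviations -0.01, -1.23e-04 and 0.0015), and none correlated best with its own number. The labels state no pairing, and these correlations cannot show whether such libraries shared a batch. With 1 library left out, Rel ranged from -0.040 to 0.54, Nfkbib from -0.052 to 0.21 (-0.00613 at the same total), Map3k7 from -0.099 to 0.062, and the log2 ratio differences of Rel to Rela from -0.23 to 0.57 and of Nfkbie to Nfkbia from -0.12 to 0.069. Activation genes called higher then numbered 2 to 4 and lower 1 to 2 (1 without the trend, 3 at the same total). Alternative pathway genes called higher numbered 3 at a mean of at least 1 FPKM. With 1 library left out, brakes called higher numbered 3 to 5 (3 at the same total) and lower 0 to 1 (3 at the same total, 1 at the same median, 1 with library weights). Targets called lower then numbered 1 to 3. The causes were not tested. At the same total, 39.5% of calls were higher, against 52.1%. Rows called lower numbered 1534, against 990 without control 1 and 935 without control 2, and 1575 rows were called higher and 1385 lower with the replicate block.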
